A study of Mus musculus with 3 samples.

Results

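The genes described here are those of the macroautophagy machinery, taken by a pattern of gene symbols: the numbered Atg genes, the kinases Ulk1 to Ulk4, Rb1cc1, Becn1, Pik3c3, Pik3r4, Uvrag, Wipi1 and Wipi2, the Gabarap and Map1lc3 genes, and the receptors Sqstm1, Nbr1 and Optn. The pattern found 38 of the 21901 genes that had a protein-coding transcript entry in the deposited transcript tables, and it used no measured value. The cells were primary splenic T cells of female B6CASTF1/J mice aged 66 days, offspring of C57BL/6 mothers and CAST/EiJ fathers. The labels name 3 libraries of 1 group, biological replicates 1, 2 and 3, with no treatment and no second group to compare. Each library was made from 300 ng of total RNA with a directional kit and an ERCC spike-in. However, the 3 samples stand under 1 donor record, and whether they are 3 animals is not stated in the labels. SDs and p-values here therefore cover no more than the variation among these 3 samples, and that variation may be technical. In a bulk sample, fewer cells expressing a gene and less of its RNA per cell cannot be told apart.

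Macroautophagy encloses cytoplasm in a double membrane that closes into an autophagosome and fuses with the lysosome. A kinase complex starts the process, a lipid kinase marks the site, lipid carriers feed the membrane, and ubiquitin-like conjugation systems attach Atg8 proteins to it, to which cargo receptors bind. In T cells the pathway is known for the removal of mitochondria and endoplasmic reticulum during maturation and for the survival of peripheral cells.

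The gene table held 16875023, 14988634 and 16197098 estimated counts in replicates 1, 2 and 3. At these depths, 1 TPM (a level scaled by transcript length and by the library's total) at 1 kb of effective length stood for 17.0, 15.4 and 17.0 reads. Counts of each pair of libraries differed by more than sampling noise, with a chi-square of 4.2 to 5.2 per degree of freedom, so the 3 libraries were treated as separate. All 12 T-cell markers were detected and summed to 3389, 3339 and 3125 TPM, against 16.5, 23.4 and 12.3 TPM for 9 B-cell markers and 30.7, 24.9 and 27.7 TPM for 8 monocyte and macrophage markers. Higher sums were found for 6 stroma and endothelium markers, at 55.8, 51.3 and 51.2 TPM, where Pecam1 alone had 51.8 ± 2.16 TPM. Sums were also higher for 5 MHC class II genes, at 107, 127 and 69.9 TPM. For 7 erythroid markers they were 55.4, 97.7 and 43.2 TPM. The MHC class II and erythroid sums were both highest in replicate 2 and lowest in replicate 3. Of these genes, Cd74 and Hba-a2, a near-identical copy of Hba-a1 and so of uncertain count, varied between libraries beyond the trend, with edgeR adjusted p of 0.0254 and 0.0321. Among listed immediate-early, heat-shock and cell-cycle genes, Hspa1b, Mki67, Fos, Top2a, Fosb, Hspa1a and Egr1 also did, with edgeR adjusted p from 0.000187 to 0.0325. Jun, Junb, Ier2, Cdk1, Ccnb1, Bub1 and Birc5 of those lists were not called. The part that other cells or these differences had in the autophagy values was not tested.

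Autophagy genes were broadly expressed. Of the 38 genes, 32 (84.2%) reached 1 TPM in all 3 libraries, the threshold for detection used here, against 9851 of 22028 protein-coding genes (44.7%), and 24 reached 10 TPM. The median over the 38 was 17.6 TPM. Over the 32 detected genes it was 19.4 TPM, against 13.5 TPM over all detected protein-coding genes. Together the 38 genes took 0.192% ± 0.0021 (SD, n = 3) of the estimated counts, and their TPM summed to 963, 920 and 896. Over all transcript entries, the highest were Sqstm1, Map1lc3b, Gabarap and Becn1, and the genes under the threshold were Atg4a-ps, Atg4c, Optn, Ulk4, Wipi1 and Atg9b.

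**Figure D1:**
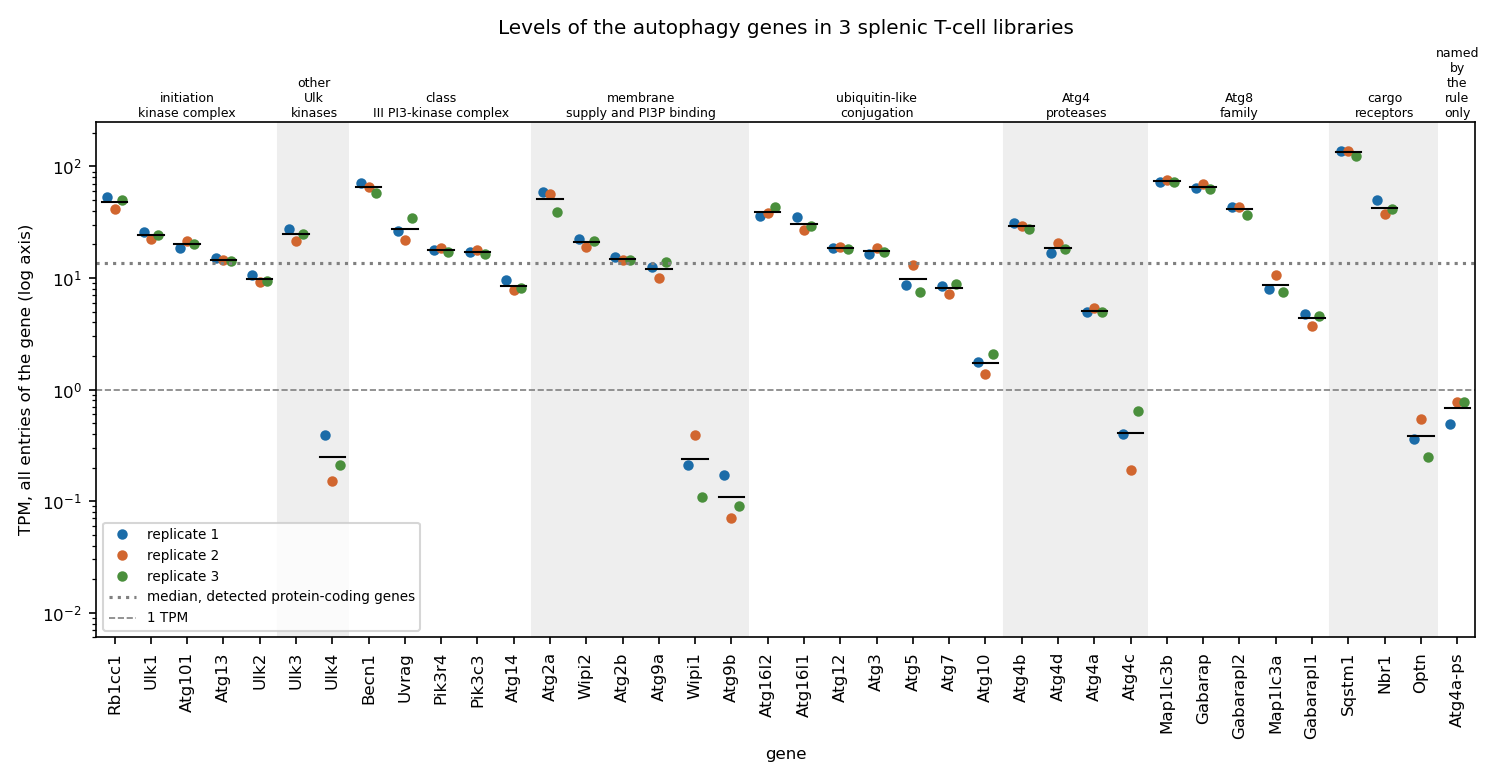
TPM of each of the 38 genes in replicates 1, 2 and 3 (coloured points, log axis), with the mean as a black line, grouped by role. The dotted line is the median of detected protein-coding genes, 13.5 TPM, and 6 genes lie below the dashed line at 1 TPM in every library.

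Transcript structure bears on several of these levels, so the sequences that distinguish the entries concerned are given first. They are on GRCm38 (mm10) with the GENCODE M21 annotation, from which they were read, 5′ to 3′ on the transcribed strand. In the 5 exon-intron boundaries, 20 bases of exon in lower case are followed by 20 bases in capitals that belong to an intron of the protein-coding entry and that the retained-intron entry keeps. They are shown because a large share of the TPM of these genes was assigned to such entries, which the annotation does not list as coding.

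Gabarapl2-202, chr8:111941196-111941235, plus strand: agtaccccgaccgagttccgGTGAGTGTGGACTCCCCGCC

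Sqstm1-207, chr11:50206003-50206042, minus strand: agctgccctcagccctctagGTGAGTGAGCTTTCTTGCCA

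Atg2a-202, chr19:6251844-6251883, plus strand: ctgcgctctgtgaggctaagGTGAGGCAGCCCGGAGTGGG

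Atg4d-203, chr9:21268508-21268547, plus strand: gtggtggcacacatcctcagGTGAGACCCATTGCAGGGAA

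Map1lc3b-202, chr8:121593526-121593565, plus strand: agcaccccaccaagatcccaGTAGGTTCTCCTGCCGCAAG

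Atg4d-203 keeps the whole 77-base intron and Map1lc3b-202 the whole 2440-base intron, whereas the entries of Gabarapl2, Sqstm1 and Atg2a end inside introns of 1286, 2988 and 563 bases. The next set holds coding stretches in capitals by which protein-coding entries of the same gene differ: a 57-base exon of Atg16l1-201, a 48-base exon of Atg16l1-203, and a 94-base stretch of Gabarap-201 that is missing from Gabarap-202.

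Atg16l1-201, chr1:87774813-87774869, plus strand: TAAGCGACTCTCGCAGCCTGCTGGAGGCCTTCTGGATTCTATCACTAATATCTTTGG

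Atg16l1-203, chr1:87775081-87775128, plus strand: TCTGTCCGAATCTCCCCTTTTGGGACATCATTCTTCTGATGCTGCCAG

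Gabarap-201, chr11:69992582-69992675, plus strand: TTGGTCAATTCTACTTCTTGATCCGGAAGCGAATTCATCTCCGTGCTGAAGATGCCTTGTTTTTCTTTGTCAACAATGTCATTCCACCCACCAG

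Initiation genes were all detected. Rb1cc1, the scaffold of the Ulk1 complex, had 52.82, 41.42 and 50.29 TPM in replicates 1, 2 and 3, lowest in replicate 2. Ulk1, the kinase that starts autophagy, had 25.99, 22.39 and 24.15 TPM. Ulk2, its close relative, had 10.63, 9.24 and 9.33 TPM, and the ranges of these kinases did not overlap. The adaptor Atg13 stood at 14.5 ± 0.447 TPM and its partner Atg101 at 20.1 ± 1.51 TPM (SD, n = 3). Over the 5 genes the sum was 117 ± 7.03 TPM, of which Rb1cc1 made up 41.3%. Ulk3, a kinase outside this complex, had 24.6 ± 2.96 TPM, whereas Ulk4 had 0.39, 0.15 and 0.21 TPM, from 3, 5 and 6 estimated counts.

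The class III PI3-kinase complex makes the lipid PI3P at the forming membrane. Over all entries it was led by Becn1, its regulatory subunit, at 71.19, 65.44 and 57.58 TPM. The catalytic subunit Pik3c3 had 17.14, 17.68 and 16.57 TPM, and the regulatory subunit Pik3r4 had 17.82, 18.63 and 17.22 TPM. Over all entries these paired subunits lay within 1 TPM of each other on the mean, at 17.1 and 17.9. On protein-coding entries alone, Pik3c3 had 15.2 ± 1.28 TPM, Becn1 14.0 ± 2.57 TPM and Pik3r4 7.26 ± 1.02 TPM. There Becn1 was below Pik3c3 on the mean and in replicate 2, but above it in replicates 1 and 3. Of that Becn1 level, 9.41 ± 2.21 TPM lay in the 684-base entry Becn1-212, which held 5.01% of the gene's estimated counts. Coding entries of the second quantification gave 19.7, 16.3 and 10.9 TPM for Pik3c3, Becn1 and Pik3r4. Atg14 directs the complex to autophagosome formation and Uvrag to endosomes. Atg14 stood at 9.62, 7.76 and 8.07 TPM and Uvrag at 26.42, 21.73 and 34.58 TPM, so Uvrag was higher in each library when all entries were counted. Counting protein-coding entries alone turned this order, with 7.37 ± 1.06 TPM for Atg14 and 5.46 ± 0.703 TPM for Uvrag. That order rested on the 376-base coding entry Atg14-204, at 3.53 ± 0.597 TPM and 6.79% of the gene's estimated counts. The longer coding entries Atg14-201 and Atg14-202 had 3.70 ± 0.612 and 0.137 ± 0.237 TPM.

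Among genes for membrane supply, the lipid transfer protein gene Atg2a had 58.60, 56.61 and 39.35 TPM, lowest in replicate 3. Its relative Atg2b had 15.40, 14.57 and 14.64 TPM. Atg9a, which encodes a lipid scramblase on vesicles that seed the membrane, had 12.1 ± 1.92 TPM, and Atg9b had 0.17, 0.07 and 0.09 TPM. Of the PI3P-binding proteins, Wipi2 had 22.57, 18.94 and 21.37 TPM and Wipi1 had 0.21, 0.39 and 0.11 TPM. In each of these pairs of relatives the levels did not overlap, and Atg9b and Wipi1 rested on means of 5 and 8.67 estimated counts per library.

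All 7 genes of the conjugation systems were detected, and their sum was 125 ± 0.802 TPM, of which coding entries made up 57.3 TPM. Some members varied more than the sum, with SDs of 4.07 TPM for Atg16l1, 3.53 TPM for Atg16l2 and 2.91 TPM for Atg5. Atg7, the E1-like enzyme of both systems, had 8.47, 7.18 and 8.87 TPM. Atg3, the E2-like enzyme for Atg8 proteins, had 16.39, 18.42 and 17.03 TPM, whereas Atg10, the E2-like enzyme for Atg12, had 1.75, 1.38 and 2.07 TPM, the lowest detected level among the 38 genes. Atg12 itself stood at 18.6 ± 0.427 TPM.

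Atg5, the protein to which Atg12 is joined, had 8.58, 13.03 and 7.56 TPM, with the coefficient of variation of 29.9% largest among detected members. Its protein-coding entry was flat, at 8.03, 7.73 and 7.56 TPM. The remainder was the 415-base processed transcript Atg5-202, at 0.55, 5.30 and 0.00 TPM, so the high value of replicate 2 lay in that short entry. Estimated counts of the gene were 311, 294 and 290.

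Atg16l1 binds the Atg12 and Atg5 conjugate and places it on the membrane. It had 34.97, 27.14 and 29.11 TPM, below its relative Atg16l2 at 36.30, 38.26 and 43.16 TPM. On protein-coding entries the order was the opposite, 13.0 ± 1.08 TPM for Atg16l1 and 6.33 ± 0.620 TPM for Atg16l2. Of the Atg16l1 entries 201, 202 and 203, the one with the 57-base exon printed above took 55.2%, 36.4% and 59.5% of their TPM, and 66.5%, 46.0% and 60.3% in the second quantification, a transcript table that the authors made from the reads without the alignments of the first. Replicate 2 was lowest in both. The entry with the 48-base exon was listed at 0 in all libraries of both. Taken over all counts of the 3 entries, a count of 0 allows a share of up to 0.427%, 0.495% and 0.513% by counting error only. Fewer reads lie on sequence particular to that entry, so the share that could be missed is larger and was not estimated. All these shares are estimates from reads that the entries share, and entries 201 and 202 also differ outside the 57-base exon.

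The Atg4 proteases trim Atg8 proteins before conjugation and release them afterwards. Atg4b took 55.1% ± 3.25 of the summed TPM of the 4 genes, Atg4d 34.5% ± 3.10, Atg4a 9.56% ± 0.235 and Atg4c 0.778% ± 0.450. The level of Atg4b was 31.39, 29.20 and 27.73 TPM, that of Atg4d 16.61, 20.59 and 18.20 TPM, and that of Atg4a 4.96, 5.39 and 4.98 TPM. Atg4c had 0.40, 0.19 and 0.64 TPM. On protein-coding entries Atg4a, at 21.8% ± 3.31, took more of the sum than Atg4d, at 14.5% ± 2.99.

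The symbol pattern also took Atg4a-ps (chr3:103643954-103646068), which the annotation lists as protein-coding and which has 1 exon against 13 in Atg4a-201. Its transcript matched Atg4a-201 at 99.3% of 2115 aligned bases, with 559 bases as the longest run without a difference. A 60-base stretch, from base 152 of Atg4a-201 and base 142 of Atg4a-ps-201, shows in capitals the 2 bases at which they differ there.

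Atg4a-201: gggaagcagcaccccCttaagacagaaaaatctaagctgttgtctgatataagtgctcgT

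Atg4a-ps-201: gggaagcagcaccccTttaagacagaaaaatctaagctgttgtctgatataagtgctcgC

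Atg4a-ps had 0.49, 0.77 and 0.77 TPM. It was the only one of the 38 genes whose deposited posterior SD exceeded 5% of its count, at 18.3%, and its level is uncertain because reads can be shared with Atg4a. For 32 of the 38 genes that SD was 0 in every library.

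The Atg8 family holds the small ubiquitin-like proteins that are joined to membrane lipid. Map1lc3b, the usual marker of autophagosomes, had 72.29, 76.19 and 73.21 TPM. Gabarap had 64.36, 69.29 and 62.13 TPM and Gabarapl2 had 43.44, 43.04 and 36.85 TPM. Map1lc3a stood at 8.04, 10.53 and 7.44 TPM and Gabarapl1 at 4.78, 3.75 and 4.55 TPM, apart from the other members in every library. Shares of the family's summed TPM were 38.3% ± 1.29 for Map1lc3b, 33.8% ± 0.402 for Gabarap, 21.2% ± 1.26 for Gabarapl2, 4.47% ± 0.632 for Map1lc3a and 2.27% ± 0.361 for Gabarapl1. On protein-coding entries the order was another, with 44.5% ± 1.58 for Gabarap, 39.9% ± 1.66 for Map1lc3b and 9.90% ± 0.921 for Gabarapl2. Of the Gabarap coding level of 57.3 TPM, 34.9 TPM lay in Gabarap-202, which lacks the 94-base stretch printed above. Gabarap-201, which has it, stood at 22.4 TPM, against 51.3 TPM for the coding entries of Map1lc3b.

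Within Gabarap, the entry without the 94-base stretch, Gabarap-202, took 53.5% ± 4.93 of TPM and Gabarap-201 took 34.3% ± 0.938. The second quantification gave the opposite order, 38.6% ± 2.74 and 53.4% ± 5.72. By estimated counts, Gabarap-201 had 49.5% and Gabarap-202 40.1%, the shorter entry at 750 bases against 1351. In Gabarapl2 the coding entry held 31.4% ± 6.36 of TPM, and the retained-intron entries Gabarapl2-203 and Gabarapl2-202 held 42.4% ± 7.65 and 26.2% ± 1.31. For Map1lc3b, the 3 highest entries were Map1lc3b-204 at 31.4% ± 3.05, the retained-intron Map1lc3b-202 at 30.6% ± 1.10 and Map1lc3b-201 at 21.5% ± 0.385. The second quantification placed Map1lc3b-203 first instead, at 40.8% ± 2.76. Map1lc3a was split between the coding entry, at 35.8% ± 13.4, and processed transcripts, with Map1lc3a-203 at 40.7% ± 28.0 in the first and 0.00969% in the second quantification. All entries of Gabarapl1 are annotated as coding, and Gabarapl1-201 led with 83.8% ± 11.3.

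Among the 3 cargo receptors that the symbol pattern took, the highest was Sqstm1, which links ubiquitin-tagged cargo to Atg8 proteins. Sqstm1 had 138.55, 136.27 and 125.17 TPM, the highest of the 38 genes in each library, above 98.5% of protein-coding genes on its mean. Nbr1, a related receptor, had 49.91, 37.15 and 41.35 TPM. Optn, which serves in the removal of mitochondria and bacteria, had 0.36, 0.55 and 0.25 TPM, from 15, 20 and 10 estimated counts. Of Sqstm1's TPM, 39.8% ± 2.63 lay in the coding entry Sqstm1-202 and 13.1% ± 1.58 in the coding entry Sqstm1-201. The retained-intron entries Sqstm1-207, Sqstm1-203 and Sqstm1-206 held 18.6% ± 0.162, 15.2% ± 0.871 and 12.02% ± 1.02. By estimated counts the coding entries held 84.4% ± 0.377, and the retained-intron entries are 457 to 585 bases long. Nbr1 was led by the coding entry Nbr1-204 at 19.1% ± 9.84, with 4.74% ± 2.33 in the second quantification, where the coding entry Nbr1-202 led at 19.7% ± 3.47.

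Related genes were compared within each library as 15 pairs on the log2(TPM + 1) scale. All 15 differences had the same sign in the 3 libraries. The exact two-sided sign-flip permutation test cannot go below p = 0.25 with 3 libraries, and every pair gave p = 0.25, also after Benjamini-Hochberg adjustment over the 15 pairs. The deposited credibility intervals of TPM were apart in all 3 libraries for 13 pairs. The exceptions were Gabarap with Map1lc3b, apart in 1 library, and Atg16l1 with Atg16l2, apart in 2. The largest differences were 6.60 ± 0.116 for Sqstm1 over Optn, 4.44 ± 0.278 for Atg4b over Atg4c and 4.15 ± 0.270 for Wipi2 over Wipi1 (SD, n = 3). The lower gene of each of these pairs was under 1 TPM, so the size rests on the pseudocount of 1, and a pseudocount of 0.1 gave 8.14, 5.96 and 6.05. Atg9a over Atg9b likewise went from 3.55 ± 0.201 to 5.88. Map1lc3b exceeded Map1lc3a by 2.97 ± 0.202 and Gabarap exceeded Gabarapl1 by 3.63 ± 0.222. Atg2a exceeded Atg2b by 1.71 ± 0.293, Sqstm1 exceeded Nbr1 by 1.63 ± 0.201 and Ulk1 exceeded Ulk2 by 1.23 ± 0.0479.

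Counting protein-coding entries alone turned the direction of 3 of the 15 pairs in all libraries. Gabarap minus Map1lc3b went from -0.18 to 0.16, Atg16l1 minus Atg16l2 from -0.36 to 0.93 and Atg14 minus Uvrag from -1.57 to 0.37. Ulk1 minus Ulk2 went from 1.23 to -0.033 ± 0.0372, within its spread of 0 and of mixed sign, with 8.29, 7.62 and 7.21 TPM for Ulk1 and 8.23, 7.93 and 7.55 TPM for Ulk2. The other 11 pairs kept their sign. With coding entries of the second quantification, Atg16l1 and Atg14 were again the higher of their pairs, by 0.87 and 0.77. Gabarap was not, at -0.35 for Gabarap minus Map1lc3b, and Ulk1 minus Ulk2 was 0.51. In both quantifications the coding direction of Atg14 rested on the 376-base Atg14-204, at 3.53 TPM in the first and 6.97 TPM in the second. That of Gabarap in the first rested on Gabarap-202, which lacks the 94-base stretch.

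**Figure D2:**
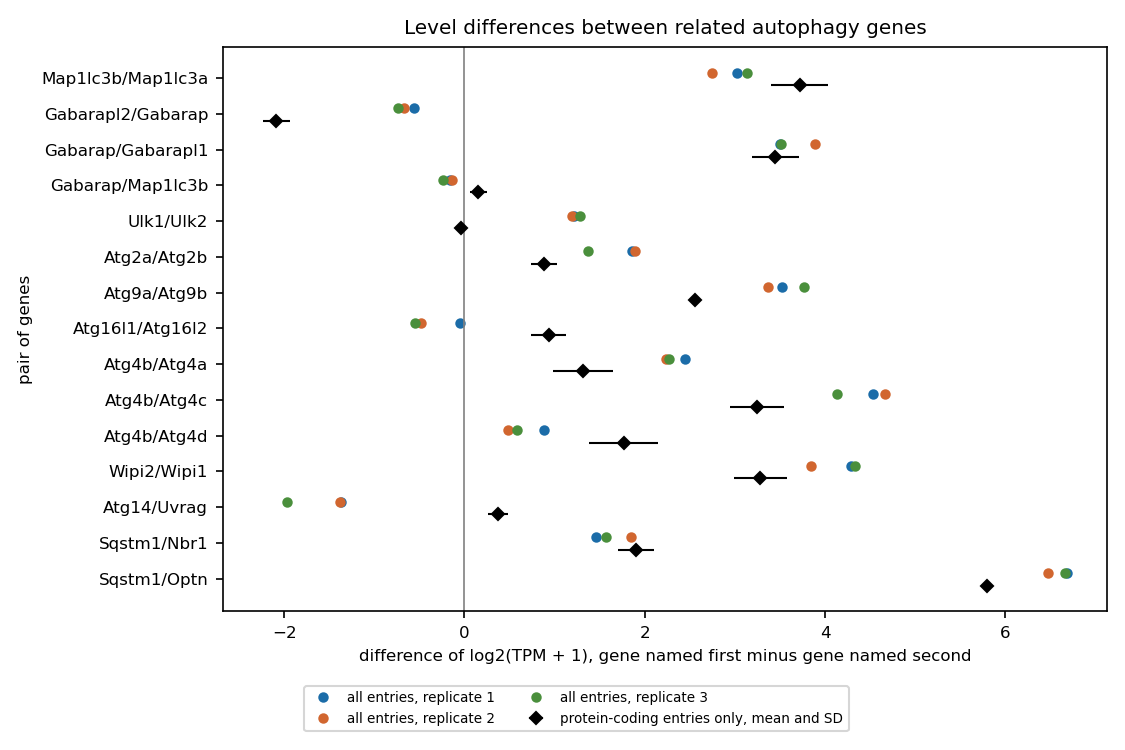
Difference of log2(TPM + 1) between related genes, the gene named first minus the gene named second, for all entries in each library (coloured points) and for protein-coding entries only (black diamonds, mean and SD of 3 libraries). Points and diamond lie on opposite sides of 0 for Gabarap/Map1lc3b, Atg16l1/Atg16l2 and Atg14/Uvrag, and the diamond of Ulk1/Ulk2 lies at 0 within its SD.

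Much of the TPM of these genes lay outside protein-coding entries. Among the 30 detected members with an annotated noncoding entry, the median share in such entries was 49.7% ± 0.949 (SD of the median over 3 libraries), beside 33.3% ± 0.560 over the 8103 detected protein-coding genes that have one. More than 50% was noncoding in 16 of the 30 (53.3%), beside 26.7% of all such genes. The share was highest in Atg4d, Atg16l2, Uvrag, Becn1, Gabarapl2, Ulk3 and Ulk1, where coding entries held 13.9%, 16.2%, 20.8%, 21.8%, 31.4%, 31.9% and 31.9% of TPM. It was low in Gabarap, Pik3c3 and Atg7, with coding shares of 87.9%, 88.6% and 88.7%, and Atg101 and Gabarapl1 had 100% in coding entries. Retained-intron entries were the main noncoding kind, with a median share of 37.3% over the members of at least 5 TPM. The retained-intron share over all genes is not given here.

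Unit and entry length changed this picture. By estimated counts the median noncoding share of the 30 genes was 27.5% ± 3.35, beside 17.6% ± 0.391 over all such genes, and 5 of the 30 (16.7%) passed 50%, beside 14.2%. Ulk1, for example, had 31.9% ± 2.08 of its TPM but 83.6% ± 1.29 of its counts in coding entries, and for Atg2a the shares were 43.5% ± 5.07 and 87.0% ± 2.28. In Becn1 both were low, 21.8% ± 3.77 of TPM and 20.8% ± 4.33 of counts, and in Map1lc3b the coding share was lower by counts, at 53.7% ± 0.527, than by TPM, at 69.4% ± 1.10. The retained-intron entry Map1lc3b-202 is 4138 bases long.

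**Figure D3:**
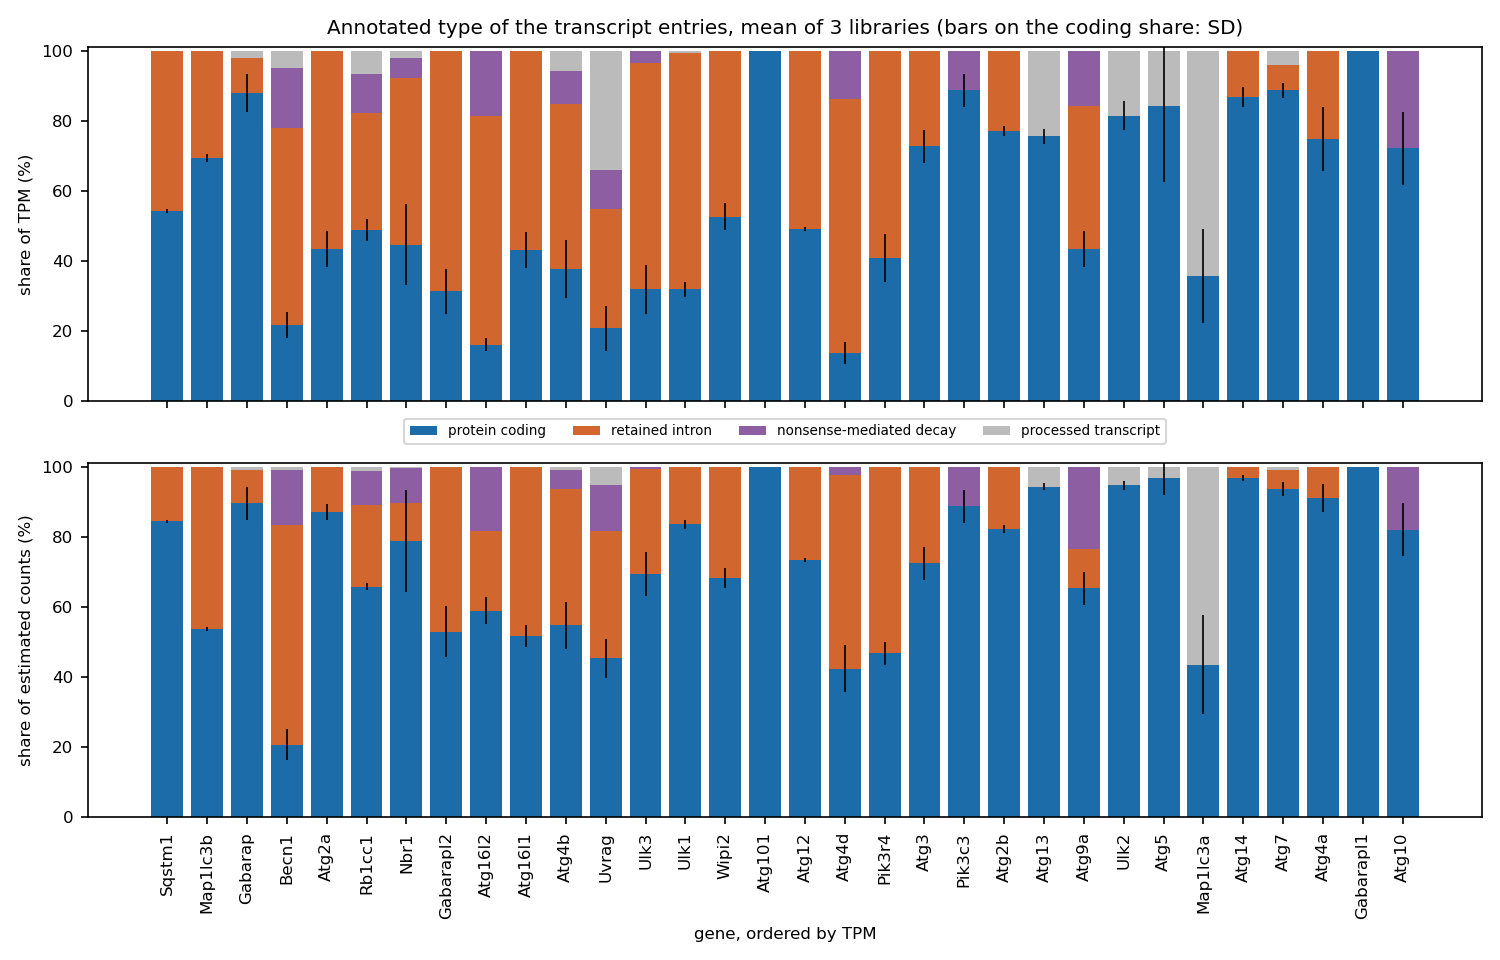
Share of TPM (top) and of estimated counts (bottom) by annotated type of transcript entry for the 32 detected genes, ordered by TPM from left to right; black bars give the SD of the coding share over 3 libraries. The coding share of Ulk1 is 31.9% of TPM and 83.6% of counts, whereas that of Becn1 is 21.8% and 20.8%.

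Among the 30 members of at least 5 TPM, the entry leading on the mean share was not protein-coding in 7 in the first quantification and in 6 in the second, 6 of them shared. The same entry led in all 3 libraries for only 17 of the 30. Like counts of leading entries over all genes are not given here. Of the 7, Atg4d, Becn1 and Atg16l2 had a noncoding lead in each library, whereas a coding entry led in at least 1 library for the other 4, Uvrag, Gabarapl2, Atg9a and Map1lc3a. Atg4d-203, with the boundary printed above, held 38.1% ± 4.35 in the first and 35.3% ± 5.84 in the second. Retained-intron entries also led the mean of Atg9a, with Atg9a-203 at 24.6% ± 2.31, and that of Atg16l2, with Atg16l2-203 at 14.1% ± 1.87. In Becn1 the retained-intron entry Becn1-202 was highest on the mean, at 16.1% ± 2.26, but in replicate 1 alone, and the retained-intron entry Becn1-210 was above it in replicates 2 and 3. In the second quantification the processed transcript Becn1-209 led at 17.1% ± 2.15. The 366-base processed transcript Uvrag-204 was highest on the mean through replicate 3 alone, at 20.1%, 17.2% and 43.6%, against 23.1%, 25.7% and 13.6% for the coding entry Uvrag-201. The second quantification was led by the retained-intron entry Uvrag-202 at 25.3% ± 5.43. The high Uvrag level of replicate 3 lay with that short entry, at 5.31, 3.74 and 15.06 TPM, whereas Uvrag-201 had 6.09, 5.58 and 4.70 TPM. The quantifications gave the same leading entry for 20 of the 30 genes and different ones for 10. Among the latter, Atg14 changed from Atg14-201 to Atg14-204, Atg7 from Atg7-210 to Atg7-206 and Atg4b from Atg4b-201 to Atg4b-203, all coding entries. Atg16l1 is counted among the 10 on mean shares of 21.7% ± 8.34 for Atg16l1-202 and 21.1% ± 2.93 for Atg16l1-201 in the first, but in both quantifications Atg16l1-201 was above Atg16l1-202 in replicates 1 and 3 and below it in replicate 2.

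Some reads near these genes could come from a neighbour on the other strand, and whether the authors' counting used the strand is not given in the sources used here. None of the 38 shared exon bases with a same-strand gene of at least 1 TPM, and 7 shared them with an antisense gene at that level. For Atg4d the overlap with Kri1, at 53.6 ± 4.34 TPM, was 1405 bases or 19.3% of its exon bases. For Sqstm1 it was 17.3%, with Mrnip at 1.49 ± 0.320 TPM, and for Ulk4 8.93%, with Ctnnb1 at 59.3 ± 2.67 TPM. Atg4d and Ulk4 are therefore uncertain where the reads of both strands cannot be told apart.

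With 1 group, the test across genes asked which of them differed between the libraries by more than genes of like abundance. In edgeR's quasi-likelihood fit, 33 of the 38 genes passed the filter on low counts, all but Atg4c, Optn, Ulk4, Wipi1 and Atg9b. None of the 33 was called at an adjusted p of 0.05, where 75 of 13280 genes (0.565%) were, and DESeq2's marking of outlying dispersion called none either. An unadjusted p under 0.05 was reached by 2 of the 33 (6.06%), Atg2a and Map1lc3b, beside 5.69% of all genes tested. The members' share was thus near the background. For Atg2a, estimated counts were 2967, 2574 and 2304, with an edgeR unadjusted p of 0.00952 and an adjusted p of 0.479, the lowest among the members. For Map1lc3b they were 3160, 3169 and 3400, with an edgeR adjusted p of 0.836. The median dispersion relative to the trend was 0.623 over the 33 and 0.734 over all genes tested.

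Partner genes of the pathway showed like levels. Of 88 genes in 6 lists, chosen with earlier results of these data known, 81 were detected, beside 44.7% of all protein-coding genes. The median over the 88 was 18.4 TPM. None of the 86 tested was called for spread by edgeR, beside 0.565% of all genes tested. An edgeR unadjusted p under 0.05 was reached by 2, beside 5.69% of all genes tested. They were Ncoa4, with an edgeR adjusted p of 0.425, and Wdfy3, with 0.816. All 18 lysosome genes were detected, led by the cathepsin gene Ctsd at 91.8 ± 2.71 TPM, the cholesterol carrier gene Npc2 at 67.2 ± 0.567 TPM and Ctsb at 37.6 ± 4.81 TPM, with the proton pump subunit gene Atp6v1a lowest at 8.84 ± 1.46 TPM. All 14 genes for fusion of autophagosomes with lysosomes were detected too. They were led by the tether gene Tecpr1 at 143 ± 1.44 TPM, above Sqstm1, followed by Vps16 at 52.4 ± 1.91 and the small GTPase gene Rab7 at 49.5 ± 1.84 TPM, and the lowest was Vps18 at 6.91 ± 0.537 TPM.

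Among 17 other receptors, 14 were detected. The mitophagy receptor genes Fkbp8 and Bnip3l stood at 95.0 ± 2.54 and 69.5 ± 9.93 TPM and the ubiquitin-binding receptor gene Tax1bp1 at 73.1 ± 3.64 TPM. Of 12 partners of the PI3-kinase complex, 11 were detected, with the Becn1-binding survival gene Bcl2 at 54.0 ± 4.69 TPM, the PI3P-binding protein gene Wdr45 at 33.4 ± 1.53 TPM, Sh3glb1 at 28.5 ± 1.99 TPM and Rubcnl lowest at 0.530 ± 0.244 TPM. Upstream, 17 of 18 genes of kinases and their regulators were detected. Stk11, the kinase that activates AMPK, had 48.2 ± 2.21 TPM, and the AMPK subunit genes Prkag1 and Prkab1 had 37.5 ± 3.02 and 32.05 ± 3.16 TPM, whereas the catalytic subunit gene Prkaa2 was at 0.00, 0.02 and 0.00 TPM. Of 9 transcription factors and their regulators, 7 were detected, led by Foxo1 at 44.1 ± 2.33, Foxo3 at 23.5 ± 1.63 and Zkscan3 at 22.9 ± 2.39 TPM, with Mitf lowest at 0.913 ± 0.234 TPM.

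**Figure D4:**
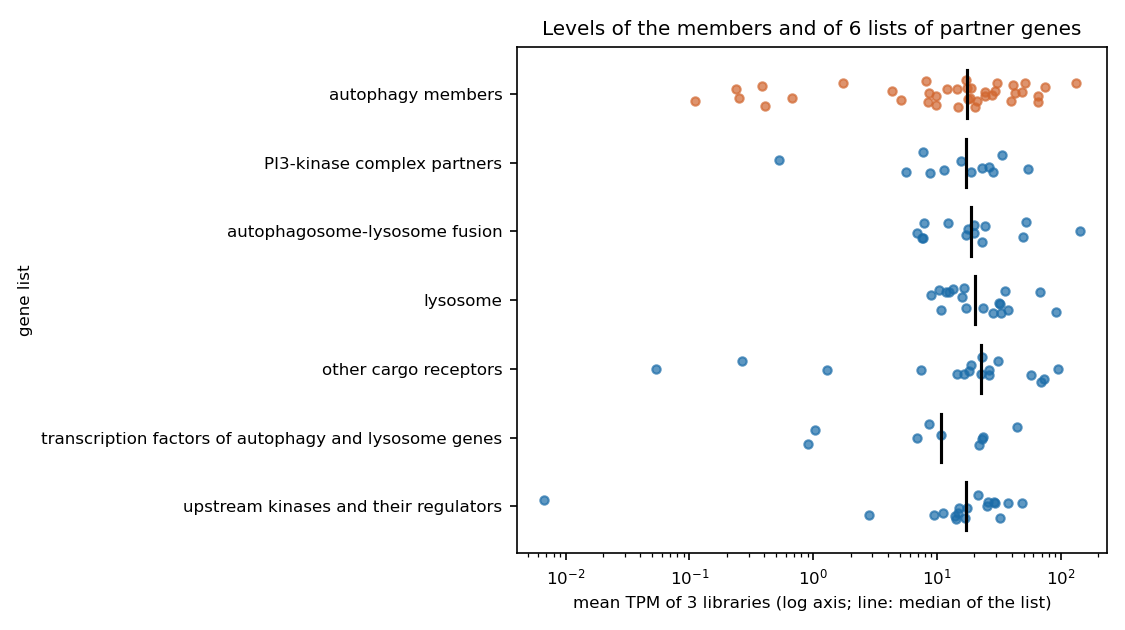
Mean TPM of 3 libraries on a log axis for the 38 autophagy genes (orange) and for 6 lists of partner genes (blue), 1 point per gene, with the list's median as a black line; points are spread vertically for legibility. List medians lie between 10.8 and 22.8 TPM, on both sides of the 17.6 TPM of the autophagy genes.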

How the data were processed

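The authors deposited, per library, a gene table and a transcript table that hold, per the file headers, estimated counts with TPM and FPKM, made from transcriptome alignments to mm10 with GENCODE M21 per the deposited notes, and another transcript table with estimated counts and TPM made from the reads and an index of that annotation. The tool for each was not given in the sources used here. One reference genome was used, and alleles were not analysed here. The second table was summed per gene. The members and all lists were chosen with earlier results of these data known. All members are named, with the 3 highest genes and the lowest gene of each partner list (1 is not reported here), any with an unadjusted p under 0.05 and, for members of at least 5 TPM, leading entries that were noncoding or differed between the quantifications. Estimated counts were rounded, filtered with filterByExpr, scaled by TMM and fitted in edgeR 4.0.16 with an intercept only. Each gene's residual dispersion was tested against a robust trend by an F test, upper tail, with Benjamini-Hochberg adjustment over all genes; the script was tested on simulated data. Pairs used a pseudocount of 1. As alternatives, results were recomputed with the second quantification, with FPKM or posterior means, with coding entries only, with other thresholds, filters and fits, with DESeq2 1.42.0, and without each replicate. The sources used here name no molecular identifiers, so floors cover counting error only.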

Additional observations from a re-analysis of the deposited data

How the results depend on the processing

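Detection of 32 genes held at 0.5 TPM, by FPKM, by posterior mean, in the second quantification and without each replicate in turn, and 29 reached 5 TPM. The count of members called for spread was 0 in every alternative run. Over all genes, calls went from 75 to 303 without a filter on low counts, 28 in a non-robust fit and 125 by DESeq2, and between 35 and 85 with 1 replicate left out (43 without replicate 1, 85 without replicate 2 and 35 without replicate 3). The cause was not tested. Protein-coding entries alone reversed Gabarap minus Map1lc3b (0.16), Atg16l1 minus Atg16l2 (0.93) and Atg14 minus Uvrag (0.37), and left Ulk1 minus Ulk2 at -0.033, within its SD of 0. In the second quantification they reversed Atg16l1 minus Atg16l2 and Atg14 minus Uvrag only, at 0.87 and 0.77. The Atg14 reversal rested on the 376-base entry Atg14-204 in both quantifications, and the Gabarap reversal on Gabarap-202. Both restrictions drop entries by their annotated type. A median noncoding share of 27.5% by estimated counts replaced 49.7% by TPM. That alternative and the coding entries of the second quantification were chosen after seeing the data. Levels over nuclear protein-coding genes only were 2.91 times as high in the median, since these genes held 34.4% of TPM, and those of the second quantification 1.34 times. No paired analysis was possible because the libraries form 1 group. Genes under 1 TPM rest on few reads, and TPM of short entries on fewer.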
